A study of Mus musculus with 15 samples.

Results

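Hearts of mice given dabigatran, an oral inhibitor that blocks the active site of thrombin (coagulation factor IIa), were compared with hearts of sham mice by RNA sequencing of messenger RNA. The comparison used every gene with a value of at least 0 on the log2 scale of CPM (read counts scaled to library size) in at least 3 of the 11 libraries of the deposited table, which left 13541 of 16658 genes. It rested on 5 of those 11 libraries, Dabi-202 and Dabi-204 of the dabigatran group and Sham_003, Sham_006 and Sham_007, and 1 further labelled dabigatran sample (Dabi-203) was not analysed here. All mice were male wild-type C57BL/6 animals aged 8-10 weeks. The dabigatran mice received 10 mg/kg for 7 days, underwent ligation of the left anterior descending coronary artery for 90 min and reperfusion for 24 h, and received the drug again from 2 h after surgery. The sham label gives no treatment beyond that word. The protocols describe surgery and drug once for the whole study, so it is not stated whether sham mice received a vehicle, and injury and drug cannot be told apart in this contrast. The tissue held the infarct and the muscle around it. The labels do not say that each library came from a separate animal, so p-values measure the spread between these samples. Where a gene is set beside other groups, these are untreated hearts (Cont_17 and Cont_19) and hearts of mice given the factor Xa inhibitor rivaroxaban at 3 mg/kg (Riva-313 and Riva-319). As far as the labels say, untreated hearts shared the ligation and reperfusion of the dabigatran hearts. For rivaroxaban hearts too, the surgery is given only by the description for the whole study. A further group given activated protein C (aPC) at 1 mg/kg, with 2 libraries in the table, entered only through the filter and the shared spread of the fit.

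Closing a coronary artery starves the heart muscle it feeds of oxygen, and reopening it adds a burst of oxidants and calcium overload that kills further muscle cells. In the day that follows, dying cells release signals that draw neutrophils and then monocytes from the blood, fibroblasts begin to lay down the matrix of a scar, and surviving muscle cells turn on stress genes while lowering the genes for burning fat. Thrombin makes fibrin and also signals to platelets, endothelium and leukocytes through protease-activated receptors, and when bound to thrombomodulin it activates protein C.

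The 5 libraries held 26203566 to 36135006 reads on listed genes, a depth recovered from the spacing of the deposited values. Log2 differences between the dabigatran libraries had an SD of 0.483 over genes, against 0.313 to 0.367 for the sham pairs, 0.313 for rivaroxaban and 0.792 for untreated. The share of reads on Gm42418, a gene that overlaps ribosomal RNA, was 2.09% and 0.997% in the dabigatran libraries and 1.57% to 1.77% in sham. Myh6, the main myosin heavy chain of the adult mouse heart muscle cell, stood between 14.31 and 15.49 in all 5 libraries, so the tissue label held. No adipocyte or red cell marker was tested, and the 2 tested skeletal muscle markers, Tnni2 and Tnnt3, stayed at or under 1.55 in these libraries. Only 2 of 7 adipocyte and 1 of 6 red cell genes had deposited values, so fat and blood content were not assessed. Atrial muscle markers summed to 37.4 and 54.5 CPM in dabigatran against 71.0 to 89.7 in sham. Mesothelial markers summed to 7.73 and 12.5 CPM against 8.16 to 14.9. In bulk tissue, fewer cells of a type and less RNA per cell cannot be told apart.

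Dabigatran hearts differed from sham hearts at 2508 of 13541 genes (18.5%) by limma at a Benjamini-Hochberg adjusted p under 0.05. Of these, 1584 were higher in dabigatran (11.7% of tested genes) and 924 were lower (6.82%). The rises were larger than the falls. Among genes called higher, 757 differed by at least 2-fold and 68 by at least 8-fold, while 253 of those called lower differed by at least 2-fold and 13 by 4-fold to 8-fold. The median difference over all tested genes was 0.01 on the log2 scale. Every called gene had groups that did not overlap, against 30.0% of tested genes apart upward and 25.9% apart downward. With each library centred on its own median the split was 1229 higher and 1343 lower, and the all-gene median moved to -0.08. Quantile normalization gave 1473 higher and 1398 lower.

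Dabi-202 carried much of the count. With Dabi-202 left out the fit called 374 genes, and without Dabi-204 it called 2733. In each of these fits the dabigatran group is 1 library, which is assumed to vary like the libraries of the other groups. Leaving out Sham_003, Sham_006 or Sham_007 left 1193, 1366 and 1446 calls. The untreated pair, which enters only through the shared spread, moved the count upward when either library was left out, to 4248 without Cont_17 and 4260 without Cont_19. In 14 gene lists a single gene was called lower, and that call was lost in 13 of them without Dabi-202, in 5 without Dabi-204, and in 10, 7 and 6 without Sham_003, Sham_006 and Sham_007. For each group of genes below, the counts without a library are given where they moved by more than 1.5 times.

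**Figure D1:**
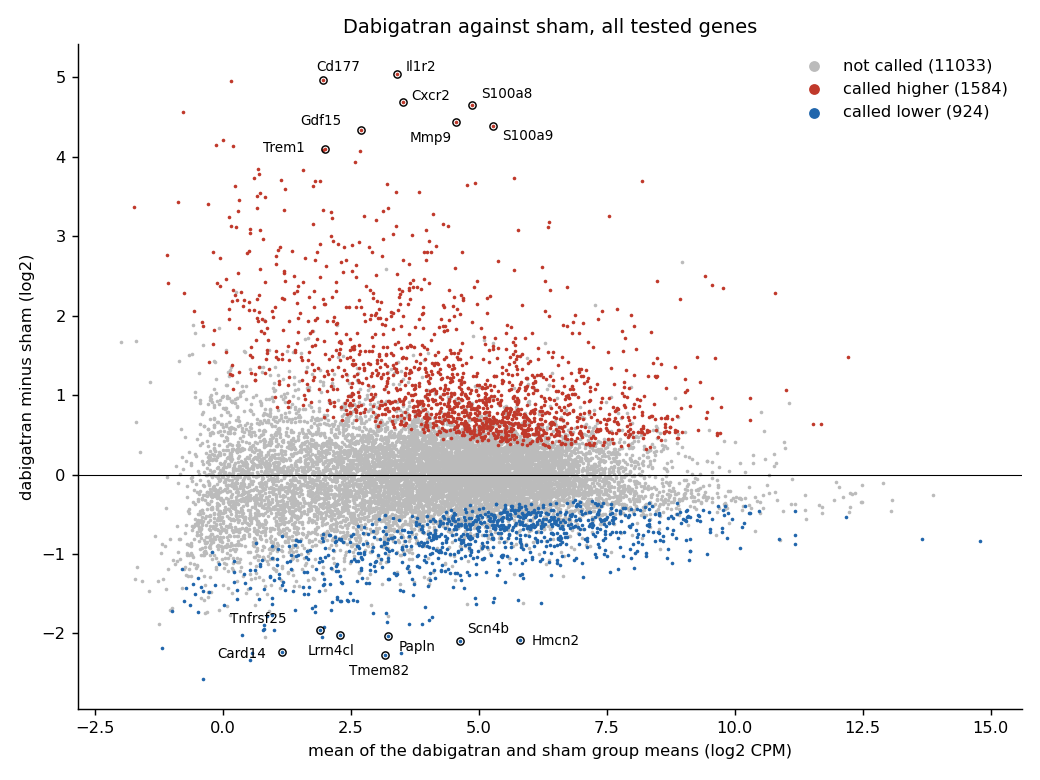
Each point is 1 of 13541 tested genes, placed by the mean of the dabigatran and sham group means in log2 CPM (x axis) and by its log2 difference, dabigatran minus sham (y axis), with called genes coloured by direction and some genes with large changes ringed and named. The 1584 genes called higher reach further from 0 than the 924 called lower.

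Values below are in log2 CPM, first for Dabi-202 and Dabi-204, then for Sham_003, Sham_006 and Sham_007. A difference is dabigatran minus sham on that log2 scale, ± the standard error of the fit (n = 2 and 3 libraries). The deposited scale holds a constant of 1.73 to 2.62 reads per library, so the fold given for a low gene is an understatement. No called gene overlapped between the groups, so a lack of overlap adds nothing to the call of a gene. Members named from a list are mostly those of smallest p, so how often their calls held is in part set by that choice. Gene positions are on mm10 from GENCODE M21.

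The 8 largest rises included neutrophil genes and a stress cytokine. Il1r2, the decoy receptor that binds interleukin 1 without signalling (chr1:40074079-40125231, plus strand), measured 6.70 and 5.13 against 0.81, 0.44 and 1.38. Both dabigatran libraries lay far above all sham libraries, a rise of 32.9-fold (5.04 ± 0.64, adjusted p = 0.00141). Cd177, a glycoprotein of the neutrophil surface, measured 5.76 and 3.13 against -0.42, -1.57 and 0.42, with Dabi-202 well above Dabi-204 and both above sham (31.4-fold, 4.97 ± 1.10, adjusted p = 0.0141). Cxcr2, the neutrophil receptor for CXC chemokines, measured 6.51 and 5.21 against 0.45, 0.97 and 2.09. It rose 25.8-fold (4.69 ± 0.67, adjusted p = 0.00218). S100a8 and S100a9 encode the 2 chains of calprotectin, a calcium-binding protein that fills neutrophil cytoplasm. S100a8 (chr3:90668978-90670035, plus strand) measured 7.78 and 6.61 against 2.29, 2.35 and 3.01 and rose 25.1-fold (4.65 ± 0.50, adjusted p = 0.000977). S100a9 measured 8.17 and 6.78 against 2.72, 2.82 and 3.72 and rose 21-fold (4.39 ± 0.52, adjusted p = 0.00122). Each calprotectin chain was higher in Dabi-202 than in Dabi-204, and the lowest dabigatran value was above the highest sham value by more than the sham range. Mmp9, the gelatinase of neutrophil granules (chr2:164940780-164955850, plus strand), measured 6.67 and 6.89 against 2.02, 2.75 and 2.27. Its dabigatran libraries were close together and its rise of 21.6-fold had the smallest standard error of these 8 genes (4.43 ± 0.34, adjusted p = 0.000777). Gdf15, a stress cytokine of the TGF beta family, measured 6.28 and 3.47 against 0.29, 1.34 and -0.01. It was far higher in Dabi-202 than in Dabi-204 and rose 20.2-fold (4.34 ± 0.86, adjusted p = 0.00869). Trem1, a receptor that amplifies inflammation in myeloid cells, measured 4.55 and 3.53 against -0.74, -0.09 and 0.66 and rose 17.2-fold (4.10 ± 0.53, adjusted p = 0.00148). In the fit without Dabi-202 the calls of Cd177 and Gdf15 were lost and the other 6 held, and all 8 held in every other leave-out. The list of 8 was drawn from called genes without overlap and ranked by the size of the rise. These sizes and the lack of overlap are therefore a description.

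Among the chemokines, 3 genes of one cluster on chromosome 5, Cxcl1, Cxcl2 and Cxcl3, carry the same match to the NF-kB consensus, GGAATTTCC, within the 150 bases before their start. NF-kB is the transcription factor family that turns on many inflammatory genes. The sequences are from RefSeq on GRCm38.p6, plus strand, 5′ to 3′, with the match in capitals. They are shown because all 3 genes were called higher than sham in the values that follow.
Cxcl1 (chr5:90891095-90891244): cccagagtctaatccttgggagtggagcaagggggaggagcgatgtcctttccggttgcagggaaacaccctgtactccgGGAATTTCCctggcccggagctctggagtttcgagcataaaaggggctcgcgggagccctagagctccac
Cxcl2 (chr5:90903749-90903898): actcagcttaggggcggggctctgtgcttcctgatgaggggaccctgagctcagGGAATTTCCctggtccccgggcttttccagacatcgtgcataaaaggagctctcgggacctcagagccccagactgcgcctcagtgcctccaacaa
Cxcl3 (chr5:90785951-90786100): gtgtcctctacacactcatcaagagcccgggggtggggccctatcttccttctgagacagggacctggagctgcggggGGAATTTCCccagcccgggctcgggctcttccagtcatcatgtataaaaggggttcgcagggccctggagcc
The match lies 70 to 62 bases before the start of Cxcl1, 96 to 88 before that of Cxcl2 and 72 to 64 before that of Cxcl3. Over 250 bases before the start, on both strands, it was found in 3 of the 12 tested chemokine genes with a promoter in the table (25.0%), in 3 of the 16 tested NF-kB subunits and targets with one and in 44 of 10392 tested genes (0.423%). The looser form GGNNTTTCC was found in 5 of the 12 chemokine genes and in 6.178% of tested genes. A match is a run of letters and was not tested as a binding site.

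These chemokines draw neutrophils and monocytes, and 7 of 16 tested chemokine genes were higher in dabigatran hearts (background 11.7%), with a median difference over the 16 of 1.10. Cxcl3 measured 5.26 and 4.19 against 0.35, 0.27 and 1.33. The dabigatran libraries stood above all sham libraries and the rise was 16.8-fold (4.07 ± 0.61, adjusted p = 0.00247). Cxcl2, another ligand of Cxcr2, measured 4.28 and 4.32 against 1.23, 0.99 and 2.07, with nearly equal dabigatran libraries and a rise of 7.3-fold (2.87 ± 0.45, adjusted p = 0.00309). Cxcl1, named here after its values were seen because it shares the promoter match, measured 5.47 and 3.84 against 2.45, 1.99 and 2.61 and rose 4.94-fold (2.31 ± 0.50, adjusted p = 0.0129). All 3 were higher than in rivaroxaban hearts, by 5.57 for Cxcl3 (adjusted p = 0.00066), 4.45 for Cxcl2 (adjusted p = 0.000522) and 3.17 for Cxcl1 (adjusted p = 0.00335). Against untreated hearts the differences were 1.45, 0.35 and 0.20, with adjusted p of 0.165, 0.654 and 0.826. Ccl7, a ligand of the monocyte receptor Ccr2, measured 6.36 and 5.83 against 3.68, 3.95 and 3.56. It rose 5.15-fold over sham (2.37 ± 0.26, adjusted p = 0.00105) and was also 2.85 above untreated (adjusted p = 0.000599). Ccl3, which acts on monocytes and lymphocytes through Ccr1, measured 2.71 and 1.36 against -0.89, -0.24 and -0.55 and rose 6.04-fold (2.59 ± 0.49, adjusted p = 0.00694). Without Dabi-202 the chemokine count was 3, and Cxcl1 and Ccl3 lost their calls.

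Markers of neutrophils and of monocytes rose together. Of 13 tested neutrophil markers, 12 were called higher, with a median difference of 3.74, and of 17 monocyte and recruited macrophage markers 11 were called higher, with a median of 2.02. Over all tested genes 11.7% were called higher and the median was 0.01. The summed CPM of the neutrophil markers was 1109 in Dabi-202 and 624 in Dabi-204, against 37.7 to 56 in sham. The monocyte sum was 1122 and 1007, against 367 to 532. Csf3r, the receptor for the growth factor G-CSF, measured 7.63 and 7.49 against 3.58, 3.99 and 3.91 and rose 13.3-fold (3.74 ± 0.38, adjusted p = 0.000977). Itgam, the CD11b chain shared by neutrophils and monocytes, measured 7.72 and 7.39 against 5.39, 5.13 and 5.17 and rose 5-fold (2.32 ± 0.22, adjusted p = 0.000977). Ccr2 measured 5.43 and 5.84 against 3.94, 3.69 and 3.23, higher in Dabi-204 than in Dabi-202, and rose 4.05-fold (2.02 ± 0.31, adjusted p = 0.00301). Cd14, a co-receptor for bacterial lipopolysaccharide, measured 5.99 and 5.14 against 3.41, 3.35 and 3.55 and rose 4.37-fold (2.13 ± 0.27, adjusted p = 0.00145). Msr1, a macrophage scavenger receptor, measured 5.98 and 5.61 against 3.46, 3.74 and 3.51 and rose 4.68-fold (2.23 ± 0.31, adjusted p = 0.00201). The calls of these named genes, chosen mostly for their small p, held in every leave-out. With Dabi-202 left out the neutrophil count was 7 and the monocyte count 4.

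Macrophages that live in the healthy heart gave another picture. Of 17 tested resident macrophage markers 0 were called higher (background 11.7%) and 2 lower (background 6.82%). The median difference was -0.12. Cbr2 measured 3.92 and 4.29 against 5.25, 5.01 and 5.0 and fell 1.97-fold (-0.98 ± 0.17, adjusted p = 0.00564). Gas6, the ligand by which macrophages bind dying cells, measured 6.68 and 7.26 against 7.72, 7.74 and 7.48 and fell 1.6-fold (-0.68 ± 0.17, adjusted p = 0.0234). Both fell below every sham library. Timd4, a marker of self-renewing macrophages, measured 0.44 and 1.57 against 2.30, 2.18 and 2.50 (-1.32 ± 0.44, adjusted p = 0.0612), and Vsig4, a complement receptor, 1.46 and 1.52 against 2.54, 1.87 and 2.62 (-0.85 ± 0.28, adjusted p = 0.0589), neither past the threshold. Against untreated hearts the same list was placed differently, with 9 of 17 markers higher in dabigatran (background 8.71%), Cbr2 by 1.18 (adjusted p = 0.00434) and Vsig4 by 1.61 (adjusted p = 0.00889). The count of 2 against sham was 0 without Dabi-202, 1 without Sham_003, and 4 without either untreated library. The count of 9 against untreated was 5 without Dabi-204.

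Other blood cells were thinly represented. In the antigen presentation and dendritic cell list 2 of 13 genes rose, close to the background of 11.7%, Itgax (CD11c) at 3.81 and 4.43 against 2.32, 2.32 and 2.07 (3.68-fold, 1.88 ± 0.36, adjusted p = 0.00759) and H2-DMb1, which loads peptide onto class II molecules, at 3.27 and 3.57 against 2.57, 2.63 and 2.14 (1.96-fold, 0.97 ± 0.24, adjusted p = 0.0224). Of 7 B cell markers 2 rose. Cd37, a surface protein of B cells and other leukocytes, measured 3.76 and 3.89 against 2.54, 2.42 and 2.17 and rose 2.72-fold (1.45 ± 0.20, adjusted p = 0.00201). Only 2 T and NK cell markers were tested, of which Cd247, the zeta chain of the T cell receptor complex, measured 0.17 and 1.54 against 2.10, 2.70 and 2.01 and fell 2.66-fold (-1.41 ± 0.39, adjusted p = 0.032). Among platelet genes, the chemokines Pf4 and Ppbp rose and the receptor chain Gp1ba fell. Pf4 measured 5.46 and 5.11 against 4.24, 4.34 and 3.62 (2.33-fold, 1.22 ± 0.29, adjusted p = 0.0172), Ppbp 3.89 and 3.35 against 0.99, 1.65 and -0.78 (8-fold, 3.0 ± 0.79, adjusted p = 0.0265) and Gp1ba 1.03 and 0.92 against 2.54, 2.20 and 2.44 (2.68-fold lower, -1.42 ± 0.27, adjusted p = 0.00711). Kit, counted among mast cell markers, rose at 3.19 and 4.09 against 2.17, 2.75 and 2.26 (2.37-fold, 1.25 ± 0.32, adjusted p = 0.0237), while the mast cell proteases Cpa3, Cma1 and Mcpt4 stayed at or under 0.55 in all 5 libraries. These calls were fragile. Of the 11 calls on the 15 lymphoid, dendritic, macrophage, platelet and mast cell genes examined, 3 held without Dabi-202, 7 without Dabi-204, and 5 each without Sham_003 or Sham_007.

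Few endothelial and mural cell genes were called. Of 18 endothelial markers 2 were called lower (background 6.82%), and the list median was -0.07. Tie1, a receptor kinase of endothelium, measured 6.81 and 7.09 against 7.74, 7.72 and 7.56 and fell 1.65-fold (-0.72 ± 0.15, adjusted p = 0.0115), and the water channel Aqp1 measured 8.21 and 7.86 against 9.01, 8.85 and 8.44 and fell 1.66-fold (-0.73 ± 0.20, adjusted p = 0.0289). Flt1 and Tek, receptors for vascular endothelial growth factor and for angiopoietins, did not pass the threshold (-0.35 ± 0.13, adjusted p = 0.086 and -0.42 ± 0.16, adjusted p = 0.0934). Of 13 smooth muscle and pericyte markers 2 were called lower. Rgs5, a pericyte marker, measured 8.50 and 8.77 against 9.48, 9.46 and 9.44, with a narrow sham range, and fell 1.77-fold (-0.83 ± 0.13, adjusted p = 0.00318), and Vtn measured 4.0 and 4.74 against 5.61, 5.49 and 4.84 and fell 1.93-fold (-0.95 ± 0.27, adjusted p = 0.0372). Pdpn, a membrane glycoprotein of lymphatic endothelium that other injured cells also make, measured 6.77 and 6.68 against 4.06, 4.16 and 3.88 and rose 6.46-fold (2.69 ± 0.26, adjusted p = 0.000977), while the lymphatic genes Flt4, Prox1 and Lyve1 had differences of 0.27 ± 0.18, -0.37 ± 0.29 and -0.28 ± 0.27 that did not pass. Mbp, a myelin protein, measured 3.45 and 3.47 against 1.97, 1.53 and 2.21 and rose 2.94-fold (1.56 ± 0.31, adjusted p = 0.00891), whereas Sox10, a transcription factor of Schwann cells, did not pass (-0.21 ± 0.67, adjusted p = 0.859). In the fit without Dabi-202 the calls of Aqp1, Tie1, Vtn and Mbp were lost, Aqp1 was also lost without Dabi-204, and Aqp1 and Vtn without Sham_003 or Sham_006. The endothelial count was 0 without Dabi-202, 1 without Sham_003 or Sham_006, and 4 with centred libraries or without either untreated library. The smooth muscle count was 1 without Dabi-202, Sham_003, Sham_006 or either rivaroxaban library, 4 without Dabi-204 or with centred libraries, and 5 without either untreated library.

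**Figure D2:**
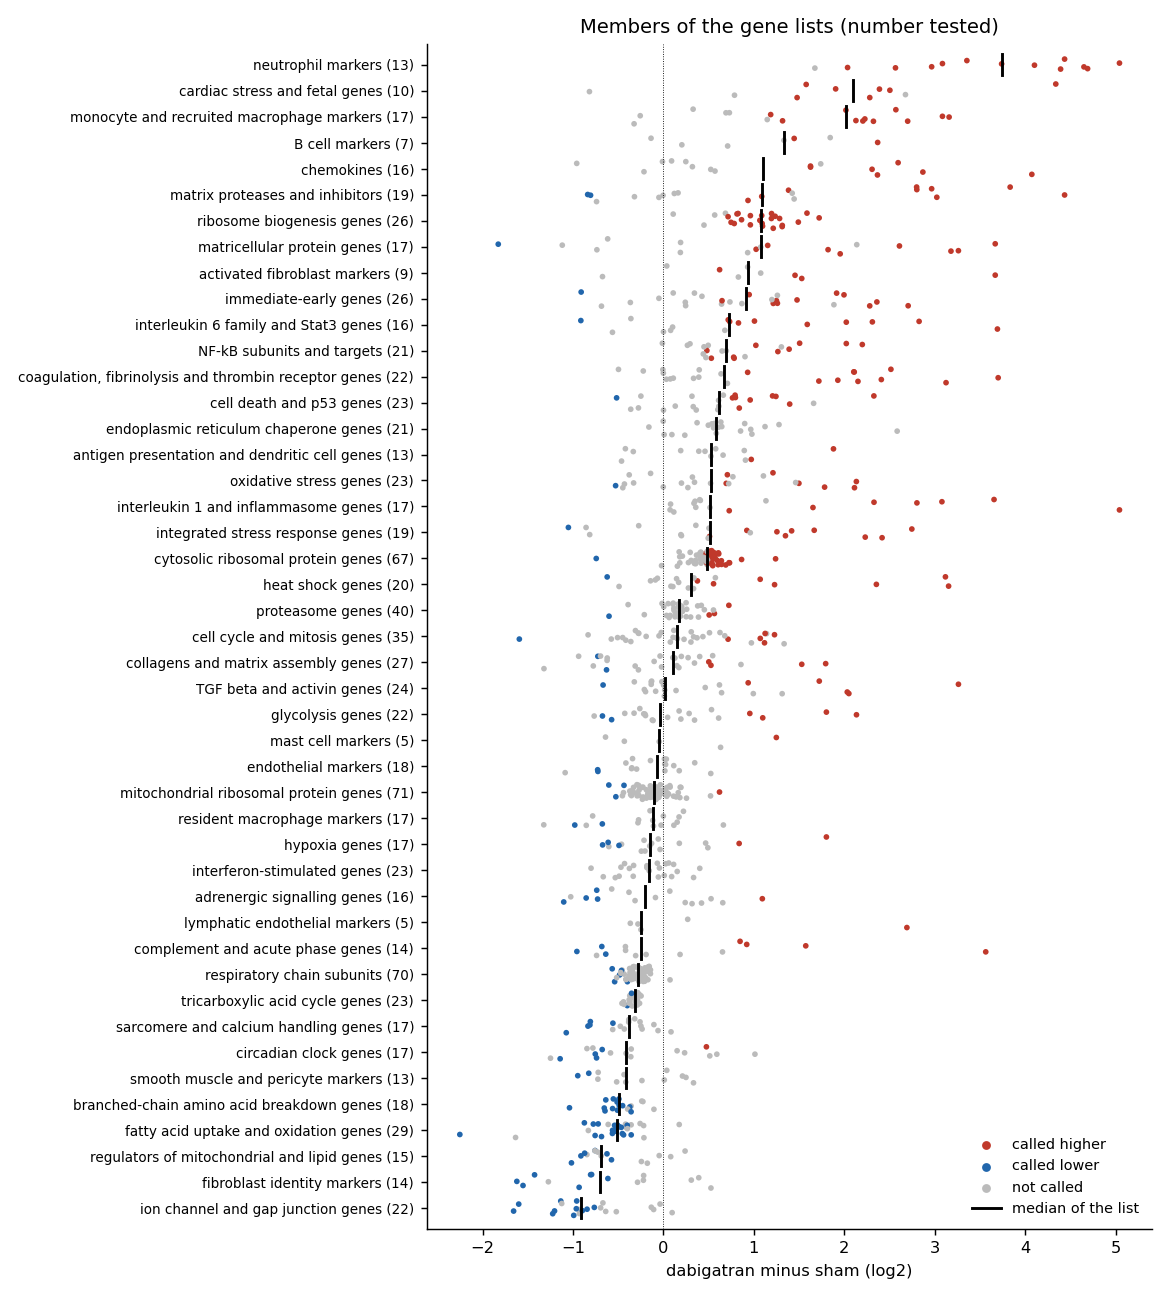
Each point is 1 tested member of a gene list, placed by its log2 difference, dabigatran minus sham (x axis), and coloured by call, with a bar at the median of the list and the lists ordered by that median (the number tested in brackets). Neutrophil markers stand at the top, with nearly all members called higher, and ion channel and gap junction genes stand at the bottom.

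Several genes of the interleukin 1 system rose. Interleukin 1 beta is made as a precursor that the Nlrp3 inflammasome matures, and Il1rn encodes the soluble antagonist of its receptor. Of 17 tested genes of the interleukin 1 and inflammasome list 7 were called higher (background 11.7%), with a median difference of 0.51. Il1b measured 5.85 and 5.16 against 1.88, 2.26 and 3.14 and rose 8.44-fold (3.08 ± 0.41, adjusted p = 0.0016). Il1rn measured 5.55 and 4.54 against 1.01, 1.47 and 1.69 and rose 12.6-fold (3.65 ± 0.43, adjusted p = 0.00122), and Nlrp3 measured 4.29 and 3.80 against 1.33, 1.72 and 2.10 and rose 5.02-fold (2.33 ± 0.35, adjusted p = 0.00255). All 3 had both dabigatran libraries above every sham library, with Sham_007 the highest sham library. All 3 were also higher than in untreated hearts, Il1b by 2.72 (adjusted p = 0.0044), Il1rn by 3.05 (adjusted p = 0.00327) and Nlrp3 by 1.91 (adjusted p = 0.0109). Their calls held without any single library, and the list count was 4 without Dabi-202.

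Many genes of the interleukin 6 family and of NF-kB also rose. Interleukin 6 and oncostatin M signal through gp130 and Stat3, and Socs3 is the feedback inhibitor that Stat3 turns on. Of 16 tested interleukin 6 family and Stat3 genes 9 were called higher and 1 lower (background 11.7% and 6.82%), with a median of 0.72. Il6 measured 4.68 and 2.82 against -0.26, -0.58 and 1.02, with Dabi-202 far above Dabi-204 and both above sham, a rise of 12.9-fold (3.69 ± 0.69, adjusted p = 0.00694). Osm measured 2.83 and 2.18 against -0.42, -1.04 and 0.49 and rose 7.09-fold (2.83 ± 0.49, adjusted p = 0.005), and Socs3 measured 6.71 and 5.63 against 4.56, 4.45 and 4.73 and rose 3.01-fold (1.59 ± 0.34, adjusted p = 0.0121). Lifr, the receptor chain for leukaemia inhibitory factor, measured 4.82 and 5.30 against 6.12, 5.79 and 6.02 and fell 1.88-fold (-0.91 ± 0.21, adjusted p = 0.0155). Of 21 NF-kB subunits and targets 10 were called higher (background 11.7%), with a median of 0.69. The subunit Relb measured 5.17 and 4.79 against 3.96, 4.05 and 3.86 (2.03-fold, 1.02 ± 0.16, adjusted p = 0.00341), the NF-kB regulator Nfkbiz 4.83 and 4.60 against 3.58, 3.12 and 3.65 (2.4-fold, 1.26 ± 0.24, adjusted p = 0.00743) and the survival factor Birc3 5.23 and 4.96 against 4.42, 4.27 and 4.25 (1.72-fold, 0.78 ± 0.15, adjusted p = 0.00717). All 3 were higher in Dabi-202 than in Dabi-204, and in both than in any sham library. Sele, the endothelial selectin that slows rolling leukocytes, measured 3.98 and 3.56 against 1.73, 1.63 and 1.88 and rose 4.06-fold (2.02 ± 0.29, adjusted p = 0.00218). Tnf measured 2.16 and 0.86 against -0.81, -0.19 and -1.06, low in sham, and rose 4.59-fold (2.20 ± 0.51, adjusted p = 0.0169). Of these 9 named genes only Sele kept its call without Dabi-202, Lifr and Tnf lost theirs without Sham_003, and Tnf without Sham_007. The interleukin 6 count was 0 higher without Dabi-202, 3 without Sham_003 and 4 without Sham_006, and the NF-kB count was 1 and 6 without Dabi-202 and Sham_003. Neutrophil and monocyte markers were higher in the same libraries (12 of 13 and 11 of 17 called, summed levels given above), and their part in the rise of the chemokine, interleukin and NF-kB genes was not tested.

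No interferon-stimulated gene was called. By limma 0 of 23 tested genes were called, 0 were higher and 2 lower at an unadjusted p under 0.05, and limma voom called 0. The list median was -0.16. Stat2, a signal transducer of type I interferon, measured 4.81 and 4.85 against 5.54, 5.22 and 5.14 and did not pass the threshold (-0.47 ± 0.18, adjusted p = 0.0943).

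**Figure D3:**
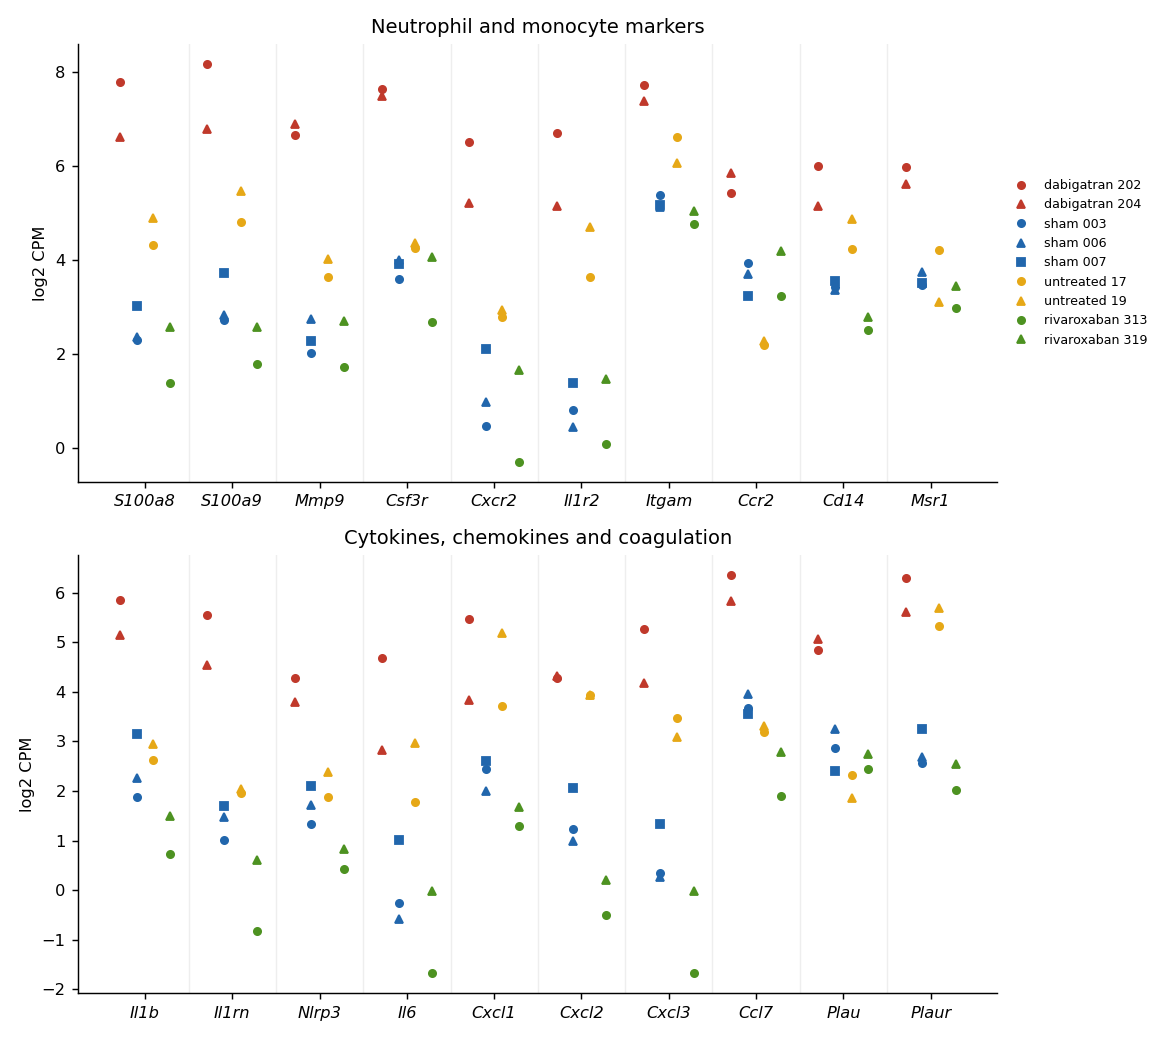
Log2 CPM (y axis) of neutrophil and monocyte markers (upper panel) and of cytokine, chemokine and coagulation genes (lower panel) in each dabigatran, sham, untreated and rivaroxaban library, with colour for the group and shape for the library. For each gene shown both dabigatran points stand above the 3 sham points.

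The genes closest to the drug's target are those of clotting, clot removal and thrombin sensing. Of 22 tested members 10 were called higher (background 11.7%), with a median of 0.67. The calls named here lay on the fibrinolytic side and in the protein C pathway. Plau, the activator urokinase, measured 4.84 and 5.07 against 2.88, 3.26 and 2.41 and rose 4.31-fold (2.11 ± 0.27, adjusted p = 0.0014). Plaur, the urokinase receptor, measured 6.29 and 5.62 against 2.56, 2.68 and 3.25 and rose 8.72-fold (3.12 ± 0.34, adjusted p = 0.000977), and Anxa2, a cell surface binder of plasminogen, measured 9.03 and 8.40 against 6.99, 7.05 and 6.94 and rose 3.29-fold (1.72 ± 0.24, adjusted p = 0.00197). All 3 were free of overlap between the groups. Procr, the endothelial protein C receptor, measured 3.40 and 2.73 against 1.03, 0.93 and 0.78 and rose 4.44-fold (2.15 ± 0.36, adjusted p = 0.00421). Its partner Thbd, thrombomodulin, measured 8.11 and 6.72 against 6.70, 6.52 and 6.90, with Dabi-204 inside the sham range, and did not pass (0.71 ± 0.30, adjusted p = 0.131).

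The receptor for thrombin and the starter of clotting showed no call. F2r, the main thrombin receptor (PAR1), measured 4.98 and 5.27 against 5.28, 5.12 and 4.99 (-0.01 ± 0.18, adjusted p = 0.985), with the groups overlapping. F3, tissue factor, measured 3.95 and 3.97 against 4.53, 4.67 and 4.18 (-0.50 ± 0.23, adjusted p = 0.15), both dabigatran libraries below sham without passing. Vwf, the platelet tether made by endothelium, measured 6.88 and 7.02 against 7.05, 6.87 and 6.84 (0.03 ± 0.13, adjusted p = 0.885) and overlapped. The 95% intervals were -0.40 to 0.39 for F2r, -1.0 to 0.00 for F3 and -0.25 to 0.31 for Vwf. Without Dabi-202 the list count was 3 and the call of Procr was lost. With the stricter filter of 2 log2 CPM in 3 libraries the count was 6, since fewer genes were tested. Against untreated hearts Plau was higher by 2.87 (adjusted p = 0.000599) and Anxa2 by 1.90 (adjusted p = 0.00201), while Plaur differed by 0.44 (adjusted p = 0.445). Neutrophil markers, which include none of these genes, summed to 1109 and 624 CPM in dabigatran against at most 56 in sham, and their part in the rise of Plau and Plaur was not tested.

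Complement and acute phase genes were called in both directions. Of 14 tested genes 4 rose and 3 fell (background 11.7% higher and 6.82% lower). Hp, haptoglobin, which binds free haemoglobin, measured 6.31 and 4.93 against 2.16, 1.91 and 2.10 and rose 11.8-fold (3.56 ± 0.47, adjusted p = 0.00157). The anaphylatoxin receptors C5ar1 and C3ar1, carried by myeloid cells, measured 5.32 and 5.12 against 3.59, 3.57 and 3.80 (2.97-fold, 1.57 ± 0.17, adjusted p = 0.000977) and 4.59 and 4.54 against 3.81, 3.69 and 3.44 (1.89-fold, 0.92 ± 0.16, adjusted p = 0.00569). Serping1, the inhibitor of C1, measured 6.30 and 6.54 against 7.28, 6.98 and 6.89 and fell 1.56-fold (-0.64 ± 0.14, adjusted p = 0.0129). In each of the 4 the groups did not overlap. With Dabi-202 left out the counts were 2 higher and 0 lower, with C3ar1 and Serping1 losing their calls, 1 gene was lower without Sham_003 or Sham_006, and 5 were lower without Dabi-204.

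Stress genes of the heart muscle cell rose. Of 10 tested cardiac stress and fetal genes 7 were called higher (background 11.7%), with a median of 2.09. Xirp2 and Flnc encode proteins that bind actin and are recruited to damaged sarcomeres. Xirp2 measured 10.87 and 10.62 against 7.98, 8.77 and 8.32 and rose 5.23-fold (2.39 ± 0.25, adjusted p = 0.000977), and Flnc measured 12.03 and 11.81 against 9.24, 9.81 and 9.87 and rose 4.86-fold (2.28 ± 0.36, adjusted p = 0.00329). Fhl1, a sarcomeric LIM-domain protein, measured 11.09 and 10.26 against 7.94, 8.35 and 8.21 and rose 5.67-fold (2.50 ± 0.30, adjusted p = 0.00122). Rcan1, an inhibitor of calcineurin that calcineurin itself turns on, measured 9.19 and 8.52 against 6.88, 7.59 and 7.34 and rose 2.98-fold (1.58 ± 0.28, adjusted p = 0.00569). For all 4 the lowest dabigatran library was above the highest sham library. Nppa, atrial natriuretic peptide, measured 7.87 and 8.11 against 5.91, 6.75 and 5.59 and rose 3.74-fold (1.90 ± 0.34, adjusted p = 0.00571). Nppb, B-type natriuretic peptide, measured 10.94 and 9.68 against 6.58, 8.34 and 7.98. Its groups did not overlap, but the libraries within each were far apart and the difference did not pass (2.68 ± 0.97, adjusted p = 0.0809). Myh7, the slow myosin heavy chain of the fetal mouse heart, measured 10.22 and 10.74 against 10.80, 11.20 and 11.89 and did not pass (-0.82 ± 0.30, adjusted p = 0.0869). In the fit without Dabi-202 the count was 2, and Flnc, Rcan1 and Nppa lost their calls.

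Some genes of contraction and calcium handling were lower. Of 17 tested members 5 were called lower (background 6.82%) and 16 of 17 had a negative difference, with a median of -0.38. Myh6 measured 14.31 and 14.41 against 14.84, 15.26 and 15.49 and fell 1.78-fold (-0.83 ± 0.25, adjusted p = 0.0422). Atp2a2, the pump SERCA2a that returns calcium to its store, measured 13.13 and 13.37 against 14.07, 14.05 and 14.05 and fell 1.75-fold (-0.81 ± 0.18, adjusted p = 0.0138). Ryr2, the release channel of that store, measured 10.40 and 10.52 against 11.12, 11.18 and 11.53 and fell 1.76-fold (-0.81 ± 0.17, adjusted p = 0.0111), and Cacna1c, the L-type calcium channel, measured 8.14 and 8.99 against 9.37, 9.52 and 10.02 and fell 2.11-fold (-1.07 ± 0.30, adjusted p = 0.0316). The sham values of Atp2a2 were nearly equal, whereas those of Myh6 and Cacna1c were spread. All 4 calls were lost without Dabi-202, Myh6 was also lost without Dabi-204, either aPC library, either rivaroxaban library, Sham_006 or Sham_007, and Cacna1c without any one sham library. Quantile normalization kept Ryr2 among these 4 and left 2 of the list lower, and library weights left 3. The list count was 3 without Dabi-204, without either aPC library or without either rivaroxaban library, and 2 without Sham_006 or Sham_007.

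Several potassium channel genes fell. Of 22 tested ion channel and gap junction genes 11 were called lower (background 6.82%), with a median of -0.91. Kcnd2 encodes a pore chain of the fast transient outward current that ends the action potential early in the mouse, and measured 3.91 and 5.04 against 5.81, 5.97 and 6.44 (3.03-fold lower, -1.60 ± 0.29, adjusted p = 0.00587). Kcnv2, a silent modifier chain, measured 0.79 and 1.15 against 3.05, 2.30 and 2.53 (3.15-fold lower, -1.66 ± 0.37, adjusted p = 0.0139). Kcnj3, a chain of the acetylcholine-gated channel, measured 4.31 and 5.29 against 5.82, 5.97 and 6.21 (2.3-fold lower, -1.20 ± 0.29, adjusted p = 0.0193). In each of the 3, Dabi-202 was the lowest, Dabi-204 lay between it and sham, and the groups did not overlap. All 3 calls were lost without Dabi-202, Kcnv2 without Sham_003, and Kcnj3 without Sham_006 or Sham_007. The list count was 0, 4, 3 and 5 without Dabi-202, Sham_003, Sham_006 and Sham_007, and 17 without either untreated library.

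Of 16 tested adrenergic receptors and partners 4 were called lower (background 6.82%) and 1 was called higher (background 11.7%). The alpha-1 receptors Adra1a and Adra1b measured 3.04 and 3.79 against 4.66, 4.45 and 4.44 (2.15-fold lower, -1.10 ± 0.25, adjusted p = 0.0155) and 4.61 and 4.87 against 5.70, 5.60 and 5.48 (1.81-fold lower, -0.85 ± 0.14, adjusted p = 0.00437). Adcy5, the main adenylyl cyclase of the heart muscle cell, measured 5.99 and 6.11 against 6.69, 6.85 and 6.83 and fell 1.67-fold (-0.74 ± 0.14, adjusted p = 0.00759). Arrb2, an arrestin that switches receptors off, measured 5.73 and 5.51 against 4.61, 4.61 and 4.36 and rose 2.13-fold (1.09 ± 0.15, adjusted p = 0.00197), with the groups far apart. The 4 lower calls of the list were lost without Dabi-202, Adra1a also without Sham_003, and 3 genes were called higher without either untreated library.

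Most genes for the use of fat were lower. Fatty acids are taken up, joined to coenzyme A and carried into the mitochondrion by carnitine for beta oxidation, the main fuel route of the adult heart. Of 29 tested genes 18 were called lower (background 6.82%) and the median difference was -0.51. Slc27a1, a fatty acid transporter, measured 7.48 and 7.31 against 8.20, 7.85 and 8.30 and fell 1.65-fold (-0.72 ± 0.14, adjusted p = 0.00759). Cpt2, which frees the fatty acid from carnitine inside the mitochondrion, measured 6.84 and 6.96 against 7.89, 7.64 and 7.79 and fell 1.83-fold (-0.87 ± 0.12, adjusted p = 0.00189), and Mlycd, which removes the malonyl-CoA that blocks this import, measured 6.22 and 6.18 against 7.16, 6.75 and 7.01 and fell 1.71-fold (-0.78 ± 0.16, adjusted p = 0.00903). In these 3 the dabigatran libraries were close to each other and below all sham libraries. Cpt2 was also lower than in untreated hearts (difference -0.74, adjusted p = 0.00635) and than in rivaroxaban hearts (difference -1.21, adjusted p = 0.000491). The list count was 2, 6, 5, 10 and 8 without Dabi-202, Dabi-204, Sham_003, Sham_006 and Sham_007, and 11 without either rivaroxaban library, and Mlycd lost its call without Dabi-202.

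Some transcription factors that drive such genes were lower as well. Of 15 tested regulators of mitochondrial and lipid genes 6 were called lower (background 6.82%), with a median of -0.69. Klf15, a Krüppel-like factor that promotes lipid use in the heart, measured 4.96 and 5.39 against 6.07, 6.09 and 6.10, with nearly equal sham values, and fell 1.88-fold (-0.91 ± 0.15, adjusted p = 0.0034). The retinoid X receptors Rxra and Rxrg, partners of the PPAR receptors, measured 6.05 and 6.34 against 6.84, 6.77 and 6.84 (1.54-fold lower, -0.62 ± 0.12, adjusted p = 0.00687) and 4.63 and 5.30 against 5.99, 6.11 and 5.84 (2.02-fold lower, -1.02 ± 0.24, adjusted p = 0.0168). Esrra, a nuclear receptor for mitochondrial genes, measured 7.16 and 7.16 against 7.71, 7.81 and 7.68 and fell 1.49-fold (-0.57 ± 0.10, adjusted p = 0.00571). No library of 1 group overlapped the other in these 4. Klf15 alone of the 4 held without Dabi-202, where the list count was 1, and Rxrg was lost without Sham_003 or Sham_006. The count was 3 without Sham_006 and 10 without either untreated library.

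Breakdown of branched-chain amino acids, which feeds the same mitochondria, followed the direction of the fat genes. Of 18 tested genes 13 were called lower (background 6.82%), with a median of -0.49. Ivd, the dehydrogenase of leucine breakdown, measured 7.95 and 8.05 against 8.51, 8.74 and 8.68 (1.56-fold lower, -0.65 ± 0.12, adjusted p = 0.00623). Auh, which acts later in that route, measured 5.63 and 5.79 against 6.32, 6.44 and 6.28 (1.56-fold lower, -0.64 ± 0.13, adjusted p = 0.0105). Bckdha, a chain of the committing dehydrogenase, measured 7.75 and 7.59 against 8.13, 8.26 and 8.16 (1.43-fold lower, -0.51 ± 0.12, adjusted p = 0.0149), and Pcca, a chain of propionyl-CoA carboxylase, 5.55 and 5.69 against 6.07, 6.15 and 6.17 (1.42-fold lower, -0.51 ± 0.12, adjusted p = 0.0163). In each of the 4 the dabigatran libraries were close to each other and below all sham libraries. The list count was 0, 8, 5, 4 and 5 without Dabi-202, Dabi-204, Sham_003, Sham_006 and Sham_007. All 4 named calls were lost without Dabi-202, Bckdha without Dabi-204, and Bckdha and Pcca without Sham_006.

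Slc2a1 and Slc16a3, for glucose uptake and lactate export, rose, and few genes of the mitochondrial machinery were called. Of 22 tested glycolysis genes 4 rose and 2 fell (background 11.7% and 6.82%). In the list 11 differences were positive and 11 negative, with a median of -0.03. The count of 2 lower was 0 without Dabi-202, Dabi-204, Sham_006 or Sham_007, 1 without Sham_003 or any aPC or rivaroxaban library, and 4 without either untreated library. Slc2a1, the glucose transporter GLUT1, measured 5.47 and 4.97 against 3.15, 3.58 and 3.53 and rose 3.48-fold (1.80 ± 0.21, adjusted p = 0.00122). Slc16a3, the lactate exporter MCT4, measured 5.64 and 5.10 against 3.27, 3.18 and 3.26 and rose 4.39-fold (2.13 ± 0.26, adjusted p = 0.00132), from nearly equal sham values. The glycolytic enzymes Eno1 and Pfkp measured 8.69 and 8.47 against 7.60, 7.78 and 7.48 (1.94-fold, 0.95 ± 0.13, adjusted p = 0.00159) and 7.90 and 7.55 against 6.38, 6.86 and 6.64 (2.14-fold, 1.10 ± 0.22, adjusted p = 0.00828). These 4 calls held without any single library, except that Pfkp was lost without Dabi-202. Of 23 tricarboxylic acid cycle genes 2 were called lower, Cs, citrate synthase, at 9.96 and 10.05 against 10.42, 10.38 and 10.42 (-0.40 ± 0.12, adjusted p = 0.0386) and Suclg2 at 7.28 and 7.22 against 7.65, 7.59 and 7.57 (-0.35 ± 0.10, adjusted p = 0.0414), although all 23 had a negative difference and 15 were lower at an unadjusted p under 0.05. Of 70 respiratory chain subunits 5 were called lower (background 6.82%), while 69 had a negative difference and 28 were lower at an unadjusted p under 0.05, with a median of -0.28, among them Ndufs7 of complex I at 8.07 and 7.84 against 8.41, 8.71 and 8.36 (-0.54 ± 0.14, adjusted p = 0.0257) and Cox7a1 of complex IV at 8.96 and 8.53 against 9.37, 9.44 and 9.13 (-0.57 ± 0.16, adjusted p = 0.0355). These mitochondrial counts depended on scaling and libraries. Centring the libraries gave 8 cycle genes and 12 subunits, quantile normalization 8 and 15, and the fit without the untreated libraries 10 and 14. The cycle count was 0 and the subunit count 0, 0 and 0 without Dabi-202, Sham_003 and Sham_006, and without Dabi-204 they were 1 and 0. Without either rivaroxaban library or either aPC library they were 0 and 1, and without Sham_007 they were 0 and 3.

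The summed level of the 17 contraction and calcium genes was 70824 and 72075 CPM in the dabigatran libraries, against 92067 to 114757 in sham. Its part in the lower levels of the channel, fat and amino acid genes was not tested.

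**Figure D4:**
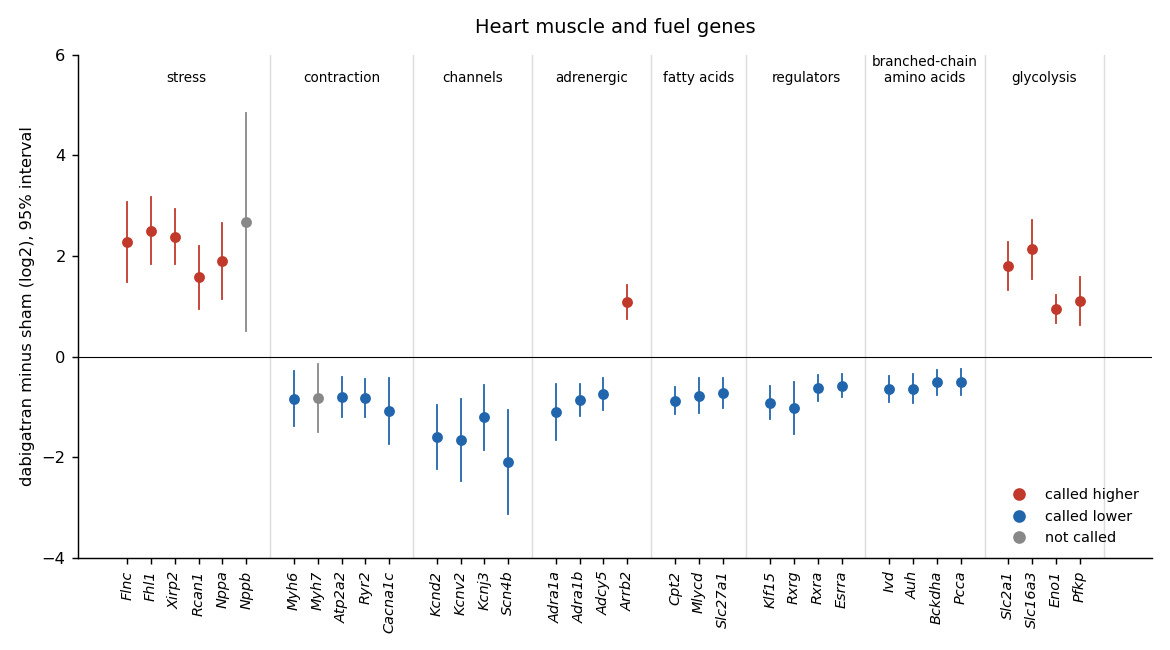
Log2 difference, dabigatran minus sham, of heart muscle and fuel genes (points) with its 95% interval (lines), grouped by role and coloured by call. Stress genes and the glycolysis genes shown stand above 0, and contraction, channel and fatty acid genes stand below it. Myh7 and Nppb were not called.

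Some markers of resting fibroblasts fell and some markers of activated fibroblasts rose. Of 14 markers of resting cardiac fibroblasts 7 were called lower (background 6.82%), with a median of -0.70. Of 9 markers of activated fibroblasts 4 were called higher (background 11.7%) and 5 were not called, with a median of 0.93. Pi16, a marker of a quiescent fibroblast state, measured 5.26 and 5.54 against 6.87, 6.70 and 7.49 and fell 3.08-fold (-1.62 ± 0.25, adjusted p = 0.00299). Clec3b, tetranectin, measured 3.75 and 4.55 against 5.89, 5.47 and 5.75 (2.93-fold lower, -1.55 ± 0.22, adjusted p = 0.00213), Scara5, a ferritin receptor, 3.72 and 4.29 against 5.47, 5.08 and 5.74 (2.68-fold lower, -1.42 ± 0.26, adjusted p = 0.00642), and Gsn, gelsolin, 9.31 and 9.57 against 10.25, 10.29 and 10.20 (1.75-fold lower, -0.81 ± 0.16, adjusted p = 0.00829). All 4 were below sham in both dabigatran libraries, with Dabi-202 the lower. Tnc, tenascin C, a matrix protein of fresh wounds, measured 6.34 and 7.17 against 3.38, 3.52 and 2.37 and rose 12.7-fold (3.67 ± 0.61, adjusted p = 0.00412), here with Dabi-204 the higher. Lox, which crosslinks collagen, measured 5.66 and 4.91 against 4.05, 3.46 and 3.76 (2.89-fold, 1.53 ± 0.35, adjusted p = 0.0155), and Runx1, a transcription factor, 4.99 and 4.38 against 2.91, 3.23 and 3.55 (2.74-fold, 1.45 ± 0.32, adjusted p = 0.0129). Postn, periostin, the marker of established activated fibroblasts, measured 6.91 and 6.85 against 6.48, 5.78 and 5.14 and did not pass (1.07 ± 0.42, adjusted p = 0.0982), though it was higher than in untreated hearts by 2.12 (adjusted p = 0.0151). Without Dabi-202 the counts were 1 lower and 1 higher, and Pi16, Scara5, Gsn, Lox and Runx1 lost their calls. Without Sham_003 there were 4 lower, and without Sham_006 Lox was lost.

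Several matricellular genes rose, and the fibrillar collagen genes named here were not called. Of 17 matricellular protein genes 8 were called higher and 1 lower, with a median of 1.07. Spp1, osteopontin, measured 8.20 and 7.74 against 5.30, 5.35 and 3.73 and rose 9.05-fold (3.18 ± 0.63, adjusted p = 0.00869). Thbs1, thrombospondin 1, which activates latent TGF beta, measured 7.62 and 7.46 against 5.0, 5.08 and 4.72 and rose 6.1-fold (2.61 ± 0.39, adjusted p = 0.00247). Wisp1 and Vcan measured 4.29 and 4.06 against 2.19, 2.10 and 2.38 (3.87-fold, 1.95 ± 0.36, adjusted p = 0.0065) and 6.60 and 6.55 against 5.47, 5.43 and 5.76 (2.03-fold, 1.02 ± 0.15, adjusted p = 0.00209). All 4 were free of overlap. Of 27 collagens and matrix assembly genes 4 rose and 2 fell, close to the background of 11.7% and 6.82%, with a median of 0.10. Fn1, fibronectin, measured 8.79 and 9.75 against 7.58, 7.52 and 7.33 and rose 3.47-fold (1.79 ± 0.26, adjusted p = 0.00231). Eln, elastin, and P4ha2, a collagen prolyl hydroxylase, measured 5.37 and 5.43 against 6.21, 5.89 and 5.99 (1.55-fold lower, -0.63 ± 0.16, adjusted p = 0.021) and 5.60 and 5.91 against 6.38, 6.47 and 6.60 (1.65-fold lower, -0.73 ± 0.18, adjusted p = 0.0225). Col1a1 measured 6.28 and 7.81 against 7.82, 7.88 and 7.32 and Col3a1 7.17 and 8.95 against 9.43, 9.07 and 8.50. In both, Dabi-202 was below every sham library and Dabi-204 inside the sham range, and neither passed (-0.62 ± 0.39, adjusted p = 0.288 and -0.94 ± 0.51, adjusted p = 0.22). With Dabi-202 left out the matricellular count was 4 and the collagen list had 1 higher and 0 lower, and Spp1, Wisp1, Eln and P4ha2 lost their calls. Collagen list genes called lower numbered 9 without Dabi-204, 5 without either untreated library, 0 without Sham_003 and 1 without Sham_006 or Sham_007. Each sham library left out in turn gave 2 collagen genes higher, P4ha2 was lost in all 3 cases, and Eln without Sham_003.

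Several proteases that cut this matrix and ligands of the activin family rose. Of 19 matrix proteases and inhibitors 9 were called higher and 2 lower (background 11.7% and 6.82%), with a median of 1.09. Adamts4 and Adamts1 cut proteoglycans and measured 5.41 and 5.0 against 2.08, 2.18 and 2.29 (8.12-fold, 3.02 ± 0.33, adjusted p = 0.000992) and 7.32 and 7.14 against 5.93, 5.52 and 6.11 (2.61-fold, 1.38 ± 0.20, adjusted p = 0.00231). Mmp14, a membrane-bound collagenase, measured 5.46 and 5.88 against 4.62, 4.60 and 4.53 (2.12-fold, 1.09 ± 0.15, adjusted p = 0.002). Of 24 TGF beta and activin genes 5 were called higher and 1 lower (background 11.7% and 6.82%), with a median of 0.01. Inhba and Inhbb, the chains of activins A and B, measured 4.57 and 4.21 against 0.65, 1.20 and 1.53 (9.58-fold, 3.26 ± 0.41, adjusted p = 0.00138) and 4.35 and 4.32 against 2.39, 2.22 and 2.30 (4.09-fold, 2.03 ± 0.37, adjusted p = 0.00639). Fstl3, which binds and blocks activin, measured 4.68 and 3.95 against 2.08, 2.45 and 2.27 (4.14-fold, 2.05 ± 0.27, adjusted p = 0.00168), and the ligand Tgfb2 6.44 and 5.90 against 4.26, 4.43 and 4.66 (3.3-fold, 1.72 ± 0.26, adjusted p = 0.00282). In all 7 the groups did not overlap. Against untreated hearts the activin chains differed in sign, with 3.50 for Inhba (adjusted p = 0.0014) and -2.57 for Inhbb (adjusted p = 0.00387). In the fit without Dabi-202 the counts were 5 proteases higher, 0 lower and 2 TGF beta genes higher, and Inhbb and Tgfb2 lost their calls. The count of 2 proteases lower was 0 without Sham_003 and 1 without Sham_007, and without either untreated library 9 TGF beta genes were higher. Mmp9 of the protease list is also 1 of the neutrophil markers.

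Factors that build ribosomes rose nearly as a set. Of 26 tested ribosome biogenesis genes 22 were called higher (background 11.7%) and all 26 had a positive difference, with a median of 1.08. Npm1, nucleophosmin, measured 8.78 and 8.27 against 7.19, 7.29 and 7.15 and rose 2.48-fold (1.31 ± 0.17, adjusted p = 0.00145). Ncl, nucleolin, measured 9.46 and 8.96 against 8.01, 8.16 and 8.19 (2.13-fold, 1.09 ± 0.16, adjusted p = 0.0023), Nop16 5.64 and 5.05 against 4.13, 4.09 and 3.97 (2.43-fold, 1.28 ± 0.18, adjusted p = 0.00209) and Utp20, of the small subunit processome, 5.63 and 5.72 against 4.58, 4.67 and 4.88 (1.95-fold, 0.96 ± 0.14, adjusted p = 0.00206). All 4 kept their calls in every leave-out, while the list count was 5 without Dabi-202. Of 67 cytosolic ribosomal protein genes 33 were called higher and 1 lower (background 11.7% and 6.82%), with a median of 0.48. The 2 forms of ribosomal protein L3 moved apart. Rpl3, the common form (chr15:80077791-80091868, minus strand), measured 9.19 and 8.92 against 7.82, 8.04 and 7.58 and rose 2.36-fold (1.24 ± 0.18, adjusted p = 0.00228). Rpl3l, the form of skeletal and heart muscle (chr17:24727820-24736143, plus strand), measured 7.32 and 7.07 against 8.01, 7.95 and 7.86 and fell 1.67-fold (-0.74 ± 0.13, adjusted p = 0.00542). Both calls held in every leave-out. The count of 33 was 15 with libraries centred on their median, 1 without Dabi-202, 50 without Dabi-204, 20 without either rivaroxaban library, 7 without Sham_003 and 5 without Sham_007. Ribosomal protein genes have many near-identical pseudogenes, so these values are uncertain.

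Some immediate-early genes rose, and cell cycle genes were called higher at about the share of all tested genes. Of 26 immediate-early genes, those turned on within minutes to hours of a stimulus, 11 were called higher and 1 lower, with a median of 0.91. Myc, which drives ribosome biogenesis, measured 5.83 and 4.83 against 2.83, 2.52 and 2.52 and rose 6.52-fold (2.70 ± 0.33, adjusted p = 0.00127). Fosl1, a Fos family member, measured 5.44 and 4.50 against 2.62, 2.62 and 2.59, from nearly equal sham values, and rose 5.13-fold (2.36 ± 0.28, adjusted p = 0.00127). Egr2 and Ier3 measured 3.55 and 2.82 against 1.40, 1.14 and 1.27 (3.77-fold, 1.91 ± 0.37, adjusted p = 0.00759) and 7.87 and 6.49 against 5.91, 5.30 and 5.89 (2.78-fold, 1.48 ± 0.33, adjusted p = 0.0147). Each of the 4 was higher in Dabi-202 than in Dabi-204. Of 35 cell cycle and mitosis genes 5 were called higher and 1 lower (background 11.7% and 6.82%), with a median of 0.15. Ccnd1, the cyclin of the G1 phase, measured 6.89 and 6.86 against 5.63, 5.87 and 5.44 and rose 2.34-fold (1.23 ± 0.16, adjusted p = 0.00145), with equal dabigatran libraries. Pcna measured 6.02 and 5.81 against 5.26, 5.31 and 5.03 (1.64-fold, 0.71 ± 0.14, adjusted p = 0.00882), and the replication helicase chains Mcm3 and Mcm6 3.68 and 4.55 against 3.15, 3.21 and 2.61 (2.18-fold, 1.12 ± 0.31, adjusted p = 0.0323) and 4.18 and 5.05 against 3.82, 3.69 and 3.12 (2.1-fold, 1.07 ± 0.30, adjusted p = 0.0331), both higher in Dabi-204. The immediate-early count was 2 without Dabi-202 and 4 without Sham_006, and the cell cycle count was 2 without Dabi-204 or any one sham library. Egr2, Ier3 and Pcna lost their calls without Dabi-202, Mcm3 and Mcm6 without Dabi-204 or any one sham library, and Ier3 without Sham_006.

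Some heat shock genes rose and no chaperone of the endoplasmic reticulum was called. Of 20 heat shock genes 7 were called higher and 1 lower (background 11.7% and 6.82%). Their median distance from the sham mean was 0.53 in Dabi-202 and -0.01 in Dabi-204, and the list had a median difference of 0.30. Hspb1 and Cryab, small heat shock proteins abundant in muscle, measured 11.30 and 10.58 against 8.16, 8.91 and 8.69 (5.11-fold, 2.35 ± 0.33, adjusted p = 0.00197) and 11.75 and 11.33 against 10.55, 10.55 and 10.31 (2.1-fold, 1.07 ± 0.20, adjusted p = 0.00624). Hspa1b, inducible Hsp70, measured 8.61 and 7.22 against 4.55, 3.95 and 5.89 and rose 8.68-fold (3.12 ± 0.67, adjusted p = 0.0121), and since it has a near-identical copy, Hspa1a, its value is uncertain. Stip1, which joins Hsp70 to Hsp90, measured 7.65 and 7.48 against 6.84, 7.14 and 7.05 (1.47-fold, 0.55 ± 0.13, adjusted p = 0.0177). The heat shock count was 1 without Dabi-202, with only Hspb1 of the 4 still called, and 3 without Sham_003, where Stip1 lost its call. By limma 0 of 21 endoplasmic reticulum chaperone genes were called, 12 were higher and 0 lower at an unadjusted p under 0.05, and limma voom called 1. Derl3, of the machinery that pulls misfolded proteins out of the reticulum, measured 4.87 and 4.11 against 1.33, 0.95 and 3.43, with Sham_007 far above the other sham libraries (2.58 ± 0.82, adjusted p = 0.0525). Creld2 and Sdf2l1 showed the same high sham library at 7.41 and 6.72 against 5.16, 5.64 and 6.57 (1.28 ± 0.43, adjusted p = 0.0647) and 7.11 and 6.77 against 5.21, 5.71 and 6.53 (1.12 ± 0.40, adjusted p = 0.0765). Without Sham_007 the count was 6, without either untreated library 5, and with only the dabigatran and sham libraries in the fit 10.

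Enzymes that make serine and asparagine rose, as did some genes of the oxidant defence. These serve the integrated stress response, in which Atf4 turns on amino acid genes, and the Nrf2 response, which renews glutathione. Of 19 integrated stress response genes 9 were called higher and 1 lower (background 11.7% and 6.82%), with a median of 0.51. Asns, asparagine synthetase, measured 4.57 and 4.41 against 1.93, 1.62 and 1.68 and rose 6.71-fold (2.75 ± 0.30, adjusted p = 0.000977). Psat1 and Phgdh of serine synthesis measured 5.53 and 4.94 against 3.05, 2.87 and 2.53 (5.34-fold, 2.42 ± 0.24, adjusted p = 0.000977) and 2.86 and 3.35 against 1.46, 1.69 and 1.16 (3.17-fold, 1.67 ± 0.29, adjusted p = 0.00531), and the mitochondrial folate enzyme Mthfd2 4.91 and 4.19 against 2.62, 2.20 and 2.15 (4.69-fold, 2.23 ± 0.31, adjusted p = 0.00197). All 4 were free of overlap and kept their calls in every leave-out. Of 23 oxidative stress genes 7 were called higher and 1 lower (background 11.7% and 6.82%), with a median of 0.52. Their median distance from the sham mean was 0.82 in Dabi-202 and 0.01 in Dabi-204, and their summed level in Dabi-204 (4537 CPM) lay inside the sham range of 4381 to 5357 CPM. Gsr, glutathione reductase, measured 6.75 and 6.34 against 5.08, 5.05 and 5.01, from nearly equal sham values, and rose 2.82-fold (1.50 ± 0.17, adjusted p = 0.00105). Slc7a11, which imports cystine, measured 3.69 and 3.35 against 1.32, 1.65 and 1.27 (4.32-fold, 2.11 ± 0.27, adjusted p = 0.00147), Osgin1 3.95 and 3.07 against 1.90, 1.53 and 1.75 (3.44-fold, 1.78 ± 0.34, adjusted p = 0.00727) and Txnrd1, thioredoxin reductase, 8.22 and 7.25 against 6.54, 6.44 and 6.59 (2.31-fold, 1.21 ± 0.24, adjusted p = 0.00882). Hmox1, which breaks down haem, measured 7.46 and 6.36 against 5.11, 4.91 and 4.31 and rose 4.38-fold (2.13 ± 0.49, adjusted p = 0.0163). The counts were 4 and 2 without Dabi-202, where Txnrd1, Osgin1 and Hmox1 lost their calls. The integrated stress response count was 5 without Sham_003, and Hmox1 was lost without Sham_007.

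Some genes of cell death rose, 9 of 23 higher and 1 lower (background 11.7% and 6.82%), with a median of 0.61. Ripk3, the kinase of necroptosis, measured 3.98 and 3.74 against 2.45, 2.37 and 2.58 and rose 2.63-fold (1.40 ± 0.22, adjusted p = 0.00304). Bax, which opens the mitochondrial outer membrane, measured 5.80 and 5.39 against 4.80, 4.68 and 4.43 and rose 1.94-fold (0.96 ± 0.17, adjusted p = 0.00611). Tnfrsf1b, the second receptor for tumour necrosis factor, measured 5.35 and 5.27 against 4.50, 4.45 and 4.46, from nearly equal sham values, and rose 1.79-fold (0.84 ± 0.13, adjusted p = 0.00334). None of these 3 overlapped between groups. The count was 3 without Dabi-202, where Bax was lost, 4 without Sham_006 and 14 without either untreated library.

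Hypoxia and clock genes were called in both directions, more often lower. Of 17 hypoxia genes 2 rose and 3 fell, against a background of 11.7% and 6.82%. The higher calls were at the share of all tested genes, and the lower calls were above it. Ero1l, the oxidase of the endoplasmic reticulum, measured 5.80 and 5.34 against 4.73, 4.69 and 4.79 (1.79-fold, 0.84 ± 0.16, adjusted p = 0.00654). Egln1, the oxygen-sensing hydroxylase, and Epas1, the HIF-2 alpha chain, measured 8.38 and 8.31 against 8.97, 9.15 and 8.94 (1.59-fold lower, -0.67 ± 0.11, adjusted p = 0.00445) and 8.54 and 8.72 against 9.15, 9.01 and 9.19 (1.41-fold lower, -0.49 ± 0.12, adjusted p = 0.0206). Of 17 clock genes 1 rose and 4 fell, against the same background, with a median of -0.41. Hlf and Tef, transcription factors driven by the clock, measured 3.31 and 4.11 against 5.13, 4.57 and 4.85 (2.21-fold lower, -1.14 ± 0.24, adjusted p = 0.0111) and 6.61 and 7.11 against 7.82, 7.34 and 7.68 (1.69-fold lower, -0.75 ± 0.21, adjusted p = 0.0312), and Nr1d2, a repressor of the core loop, 5.97 and 6.65 against 7.17, 6.84 and 7.12 (1.67-fold lower, -0.74 ± 0.19, adjusted p = 0.0243). In all 3 Dabi-204 lay between Dabi-202 and sham, and the labels used here give no time of day for each library. The hypoxia counts were 1 higher and 1 lower without Dabi-202, and 1 lower without Sham_003 or Sham_007. The clock count was 0 lower without Dabi-202, 2 without either rivaroxaban library, and 1 without Sham_003 or Sham_007. Without Dabi-202 only Slc2a1 and Egln1 of the hypoxia and clock genes named kept their calls, Epas1, Nr1d2 and Tef were lost without Sham_003 or Sham_007, and Tef without either rivaroxaban library.

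The falls of large size were of mixed function. Tmem82 (chr4:141613376-141618633, minus strand), a membrane protein, measured 1.96 and 2.12 against 4.60, 4.18 and 4.16 and fell 4.85-fold (-2.28 ± 0.54, adjusted p = 0.0184). Card14, a scaffold of NF-kB signalling, measured 0.22 and -0.13 against 2.66, 1.56 and 2.63, and Scn4b, the beta 4 chain of the sodium channel, 3.54 and 3.63 against 6.86, 5.17 and 5.0 (-2.24 ± 0.42, adjusted p = 0.00672 and -2.09 ± 0.47, adjusted p = 0.0145). Scn4b was low in both dabigatran libraries, and Sham_003 stood well above the other sham libraries. Hmcn2, hemicentin 2 of the matrix, measured 4.45 and 5.10 against 7.03, 6.62 and 6.91 and fell 4.22-fold (-2.08 ± 0.25, adjusted p = 0.00122). Papln measured 1.50 and 2.92 against 4.16, 4.37 and 4.20 (-2.04 ± 0.56, adjusted p = 0.0304), Lrrn4cl 1.36 and 1.21 against 3.17, 3.10 and 3.64 (-2.02 ± 0.25, adjusted p = 0.00139) and the death receptor Tnfrsf25 1.54 and 0.31 against 3.10, 2.65 and 2.91 (-1.96 ± 0.44, adjusted p = 0.0149). The dabigatran libraries of Papln and of Tnfrsf25 were far apart. These falls were drawn from called genes without overlap and ranked by size, so their sizes and lack of overlap are a description. Hmcn2, Lrrn4cl and Tnfrsf25 held without Dabi-202, and Tmem82, Card14, Scn4b and Papln did not. Tmem82 and Tnfrsf25 were lost without Dabi-204, those 2 and Papln without Sham_003, and Papln without Sham_006 or Sham_007.

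The 2 dabigatran libraries lay at different distances from sham, and which lay further depended on the list. Of the 1584 genes called higher, 1329 (83.9%) were higher in Dabi-202 than in Dabi-204, and of the 924 called lower, 744 were lower in Dabi-202, while over all tested genes 50.2% were higher in Dabi-202. The median distance of called-higher genes from the sham mean was 1.12 in Dabi-202 and 0.81 in Dabi-204, and that of called-lower genes was -0.91 and -0.60. These genes were chosen on the same values, so the figures are a description. Dabi-202 led for immediate-early genes (median 1.46 against 0.54 above the sham mean), oxidative stress genes (0.82 against 0.01) and ribosome biogenesis genes (1.31 against 0.77), and it was the lower for channels (-1.13 against -0.52). Dabi-204 led for collagens (0.46 against -0.34), B cell markers (1.51 against 0.86) and cell cycle genes (0.44 against 0.00). Of 27 collagen and matrix assembly genes 25 were higher in Dabi-204, and of 70 respiratory chain subunits 69 were higher in Dabi-202. No label sets the 2 libraries apart, and these differences between single libraries have no test.

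**Figure D5:**
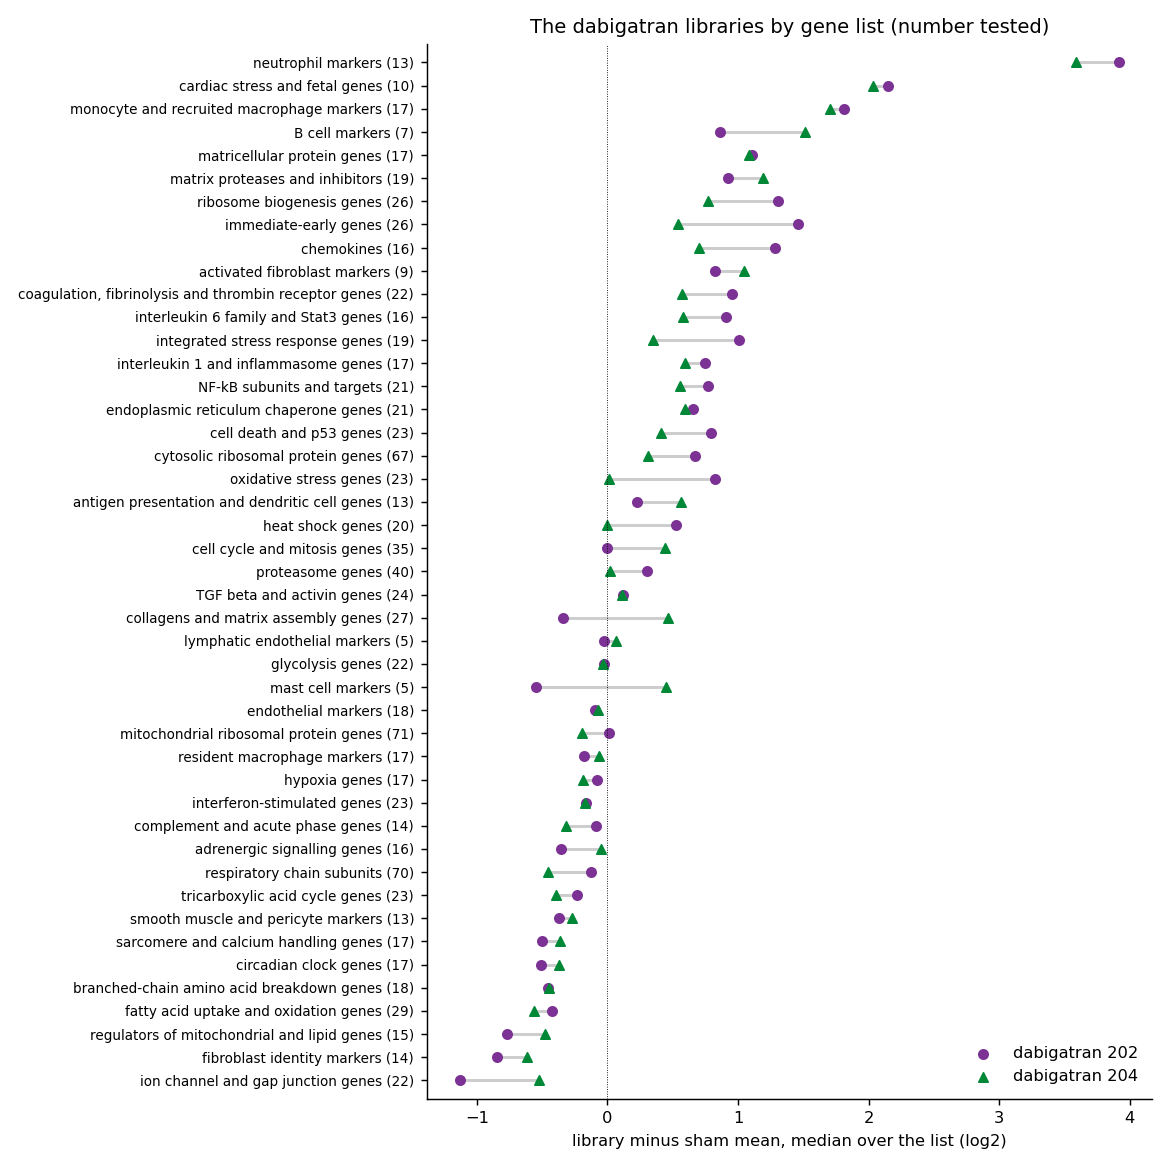
For each gene list, the median over its members of the distance from the sham mean on the log2 scale (x axis) in Dabi-202 (circles) and Dabi-204 (triangles), joined by a line. Immediate-early and oxidative stress genes lie further right in Dabi-202, and collagens in Dabi-204.

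Set beside untreated and rivaroxaban hearts, the lists fell into different patterns, each with its own test in the same fit. Dabigatran hearts had 1868 genes different from untreated hearts (13.8%; 8.71% higher, 5.08% lower) and 3161 different from rivaroxaban hearts (23.3%; 14.0% higher, 9.39% lower). These contrasts use the same dabigatran libraries as the contrast with sham, so they are read one by one. Neutrophil markers were higher than in untreated hearts for 7 of 13 and than in rivaroxaban hearts for 12 of 13. Monocyte markers were higher for 11 of 17 in each. Interleukin 6 family and Stat3 genes were higher than in rivaroxaban hearts for 10 of 16 and lower for 2, whereas against untreated hearts limma called 0 of 16, with 0 higher and 1 lower at an unadjusted p under 0.05 and 0 by limma voom. Fatty acid genes were lower than in untreated hearts for 16 of 29 and than in rivaroxaban hearts for 27 of 29. Endoplasmic reticulum chaperones were higher than in untreated hearts for 13 of 21 and than in rivaroxaban hearts for 2. Collagens and matrix assembly genes were higher than in untreated hearts for 11 of 27 and than in rivaroxaban hearts for 9. Ribosome biogenesis genes were higher than in rivaroxaban hearts for 23 of 26 and than in untreated hearts for 9.

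The counts against untreated hearts rested on a pair that was itself far apart. With library weights, which set each untreated library at a weight of 0.242, the total against untreated was 125, and the counts were 0 for neutrophil markers, 2 for monocyte markers, 0 for fatty acid genes, 0 for endoplasmic reticulum chaperones, 2 for collagens and 0 for ribosome biogenesis. Without Dabi-202 the counts against untreated were 3, 6, 6, 3 and 1 for neutrophil, monocyte, fatty acid, endoplasmic reticulum and ribosome biogenesis genes. Without Dabi-204 they were 3 for fatty acid genes, 7 for endoplasmic reticulum chaperones and 2 for collagens, and without Cont_19 they were 5, 8 and 7 for the same 3 lists. The ribosome biogenesis count of 9 was 4 or 5 without any one aPC, rivaroxaban or sham library. Against rivaroxaban hearts the counts were 6 for interleukin 6 genes and 14 for ribosome biogenesis without Dabi-202, 16 for fatty acid genes and 5 for collagens without Dabi-204, 7 for monocyte markers and 14 for fatty acid and for ribosome biogenesis genes without Riva-313, and 13 for fatty acid genes and 5 for collagens without Riva-319. The 2 endoplasmic reticulum calls against rivaroxaban became 0 without Dabi-202 or either rivaroxaban library and 5 without either untreated library or without Sham_007.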

How the data were processed

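Gene expression was measured by RNA sequencing of mouse hearts, with libraries made from 500 ng of total RNA by poly(A) selection and a directional kit, per the labels' protocols. The authors' deposited values are log2 CPM after TMM scaling, with a constant of 1.73 to 2.62 reads added in the libraries used here. The submitters' processing notes list bcl2fastq, FastQC, Trim Galore, STAR, edgeR and the mm10 build without versions. No source used here names the counting tool, the annotation or the strand setting, so overlapping and antisense genes are uncertain. After removal of the constant, 100% of values were whole multiples of 1 step per library (tolerance 0.05), which gave the depths. They limit precision, since 3 reads correspond to -2.83 to -2.48 log2 CPM in the dabigatran and sham libraries. Of the labelled samples, 4 have no column and were not analysed here.

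Groups came from the labels. A single limma fit (version 3.58.1, R 4.3.3, trend on mean level) held 5 group means over 11 libraries, with no covariate, and was tested two-sided with Benjamini-Hochberg adjustment over 13541 genes with at least 0 log2 CPM in at least 3 libraries. The difference of mean log2 values gave fold changes. Named genes were the 8 largest rises and 8 largest falls among called genes with a mean of at least 1 and no overlap (predicted genes left out), up to 4 members of each described list by p, and a set of genes of inflammation, heart stress, matrix and coagulation. Ccl2, Timp1 and F2 of that set were not analysed here. Some genes that these rules select are not reported here. The members and lists were chosen with earlier results of these data known. Lists are described by counts and medians without a set test. On simulated data made from these libraries, 59 of 100 genes changed 2-fold and 88 of 100 changed 4-fold were recovered, with 10 unchanged genes called. The simulation changed a far smaller share of genes than was called here, and gave all groups the same spread. Its rates therefore need not hold for these data. Of 16658 gene IDs, 16654 were found in GENCODE M21, and 10392 tested symbols had a promoter in the RefSeq table. The alternatives were other filters, a constant of 1 CPM, centring, quantile normalization, other sets of libraries, robust moderation, library weights, limma voom on recovered reads (chosen after seeing the data) and leaving out each library.

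Promoters were searched over 250 bases before the start, on both strands, for 11 motifs. These were the E-box CACGTG, an amino acid response element (TGATGNAA), a heat shock element (GAANNTTC), the NF-kB forms GGNNTTTCC and the GGAATTTCC contained in it, an AP-1 site (TGACTCA), a STAT site (TTCCNGGAA), nuclear receptor sites (TGACCTTTG and, for Esrra, TCAAGGTCA), an antioxidant response element (TGACNNNGC) and an ETS site (CCGGAAGT). Only the NF-kB forms are reported, chosen after the matches were seen, and an earlier search with longer and further motif forms was replaced by these shorter ones after its matches were seen.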

Additional observations from a re-analysis of the deposited data

How the results depend on the processing

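The 2508 calls of dabigatran against sham (11.7% of tested genes higher and 6.82% lower) stayed within 1.5 times under no filter, a stricter filter, another added constant, centred libraries, robust moderation and limma voom. The fit without the untreated libraries called 4252 (18.1% higher and 13.3% lower), and quantile normalization called 10.3% lower. With each library left out in turn the total ran from 374 to 4260, the higher calls from 2.35% to 18.1% and the lower calls from 0.414% to 13.3% of tested genes, with the lowest without Dabi-202. Dabigatran against untreated gave 125 calls with library weights and 662 to 4927 in the leave-outs, and dabigatran against rivaroxaban 4842 without the untreated libraries and 919 to 4840 in the leave-outs. Centring the libraries turned the split of all calls from 63.2% higher to 47.8% higher, and quantile normalization to 51.3%. None of the 342 called genes that are named or in a list changed direction in these settings. No paired analysis was possible because dabigatran and sham libraries share no replicate number. The planned edgeR and DESeq2 fits were not run because the deposited unit is log2, and limma voom took their place. In simulated data with 2 dabigatran libraries, and far fewer changed genes than were called here, 59 of 100 genes changed 2-fold were recovered. A gene near -2.48 log2 CPM rests on about 3 reads.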
